A study of Homo sapiens with 3 samples.

Results

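The ID genes and 6 genes of the bone morphogenetic protein (BMP) pathway were followed through a change of growth state in 1205Lu melanoma cells. The 10 genes are ID1, ID2, ID3, ID4, BMP2, BMP4, BMPER, BAMBI, SMAD6 and SMAD7, and they were taken as every array probe that carries one of these symbols. This gave 12 of the 41000 probes, each printed in 1 spot, and 10 of the 30982 gene names on the array. The 10 genes were chosen by family and pathway with their signals on these 3 arrays known, the ratio of MB to OM above all, so all values below are a description and none is a test.

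1205Lu is a human melanoma line that was derived from a lung metastasis of WM793 cells grown as a xenograft in a mouse. Original monolayer (OM) cells had 14 days in RPMI-1640 with 10% FCS, melanoma body (MB) cells had 14 days as 3D bodies in hESC medium with 20% KnockOut serum replacement and no FCS, and new monolayer (NM) cells had the same 14 days as bodies, followed by 10 days back in RPMI-1640 with 10% FCS, with leftover bodies taken away before RNA was prepared. Total RNA was labeled with Cy3 and hybridized to Agilent 4 × 44K arrays, with 1 array for each population. Growth as bodies, the medium and the single culture behind each array cannot be told apart in this design.

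BMP ligands bind paired type I and type II serine/threonine kinase receptors, which phosphorylate SMAD1, SMAD5 and SMAD9. These join SMAD4 in the nucleus and act on target genes, of which the ID genes are the best known. ID proteins have a helix-loop-helix but no DNA-binding basic region, and by pairing with basic helix-loop-helix (bHLH) factors they keep those factors off DNA and hold back differentiation. In the neural crest, from which melanocytes arise, BMP signals take part in fate decisions.

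The probes that the results turn on are shown by their first 30 bases, 5′ to 3′, as listed for the array.
BMP4 probe: ggacacgagactggtccaccacaatgtgac
BMPER probe, chr7:33966129-33966188: ttgtttcgatccttaagactctgaaatctg
BMPER probe, chr7:33968592-33968651: gcacaatgaggatttaccaagtgcttcaat
ID1 probe: gcagacattttaaaaaatggtcacgtttgg
ID2 probe, chr2:8773240-8773628: aggcttctgaattcccttctgagttaatgt
ID3 probe: agccaggtggaaatcctacagcgcgtcatc
ID4 probe: aaagccaccggaggaaaggaaaaaacatcg
No run longer than 8 bases was shared between any 2 of the 12 probes, which are 60 bases long. The probes were compared with each other only and not with the transcripts of related genes. Whether an ID probe also reads another ID gene was therefore not tested. In the hg17 build the files place ID4 at chr6:19947489-19947548, BMP4 at chr14:53487068-53487127, ID1 at chr20:29657819-29657878, ID3 at chr1:23630972-23631031, SMAD7 at chr18:44700780-44700839, BMP2 at chr20:6707242-6707301 and BAMBI at chr10:29011557-29011616. The SMAD6 probe spans chr15:64795864-64860421, a stretch far longer than the probe itself, and so does the ID2 probe listed above. The second ID2 probe lies at chr2:8774880-8774939. Exon and UTR positions were not analysed here.

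RefSeq promoter entries (GRCh38.p14) matched 9 of the 10 genes, all but BMP2, with 14 windows in all, each cut to the 250 bases before a transcript start. The windows of the 3 genes with the largest MB signal relative to OM are shown, 1 for each gene and for BMP4 and BMPER the one with most matches to the SMAD1/5 motif. Capitals mark that motif, GGCGCC, and the short SMAD motif, which is GTCT on the printed strand and reads AGAC when it lies on the other.
ID4 promoter, chr6:19837120-19837369, plus strand: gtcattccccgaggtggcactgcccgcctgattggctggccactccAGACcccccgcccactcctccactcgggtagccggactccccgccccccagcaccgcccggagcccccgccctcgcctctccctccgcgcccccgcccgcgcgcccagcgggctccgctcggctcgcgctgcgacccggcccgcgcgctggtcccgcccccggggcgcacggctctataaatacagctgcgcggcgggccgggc
BMP4 promoter, chr14:53955051-53955300, minus strand: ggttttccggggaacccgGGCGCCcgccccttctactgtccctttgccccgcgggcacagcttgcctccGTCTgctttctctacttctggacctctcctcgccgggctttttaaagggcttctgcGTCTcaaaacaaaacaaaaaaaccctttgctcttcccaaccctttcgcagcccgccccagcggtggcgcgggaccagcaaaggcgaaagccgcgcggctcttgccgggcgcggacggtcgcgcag
BMPER promoter, chr7:33905289-33905538, plus strand: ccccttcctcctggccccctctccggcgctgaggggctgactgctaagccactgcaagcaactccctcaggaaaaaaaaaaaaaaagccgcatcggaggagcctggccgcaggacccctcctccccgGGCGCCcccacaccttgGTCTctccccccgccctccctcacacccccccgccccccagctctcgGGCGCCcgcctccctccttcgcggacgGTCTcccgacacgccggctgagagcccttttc
GGCGCC was present in 4 of the 14 windows and in 16.4% of all 35116 RefSeq promoter windows of this length. These 4 were 1 of the 3 BMP4 windows, both BMPER windows and the BAMBI window. None of the ID1, ID2, ID3 and ID4 windows held it. GTCT on either strand was in 12 of the 14 windows and in 77.5% of all windows. GTCTAGAC, which contains GTCT on both strands, was in the SMAD6 window alone among the 14 and in 0.182% of all windows. The E-box CANNTG, which bHLH factors bind, was in 5 of the 14 and in 61.8% of all windows. These are matches of letters in a short window and not binding sites.

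Signals are in arbitrary units (a.u.) after each array was scaled to OM with 3 housekeeping genes (HSP90AA1, ACTB and GAPDH), and the error after ± is the one the scanner software gives for that spot. A signal was well above background where the software marked it so, which held for 29126 probes on the MB array, 28746 on OM and 26516 on NM, and the lowest such signal was 19.4 a.u. on the MB array, 20.9 on OM and 29.1 on NM before scaling. Among probes printed in 10 spots, the SD of the log2 ratio of single MB and OM spots was 0.05 at 100 a.u. or more and 0.20 below, a technical spread that leaves out the variation between cultures. For bright spots the software error is wider than this SD, for example 0.20 on the log2 ratio of MB to OM of ID1. Overlap within the spot errors therefore does not show that 2 signals were equal. Of 9 genes listed for melanoma and the melanocyte lineage, 7 were well above background on all 3 arrays (S100B, SOX10, MITF, SILV, DCT and, less specific, VIM and NES). MLANA was so on OM and MB alone and close to the lowest such signals, and TYR, the enzyme of pigment synthesis, on no array. KRT19, an epithelial marker, and CD68, a lysosomal gene used for macrophages, were also well above background on all 3. LUM, COL1A1, TACSTD1, CDH1, CDH5 and PTPRC, markers of fibroblasts, epithelium, endothelium and leukocytes, were not well above background on any array. PECAM1, an endothelial and leukocyte adhesion gene, was well above background on MB alone, at 87.7 a.u. unscaled, and DCN on MB alone at 26.8 a.u., and their part in the results was not tested. In such bulk RNA a smaller number of cells that express a gene and less of its RNA in each cell cannot be told apart.

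Against OM, the MB array showed ID4, BMPER, BMP4 and SMAD7 at 2-fold or more higher and SMAD6 at 2-fold or more lower. ID1, ID3, ID2, BAMBI and BMP2 lay within 2-fold, though ID3 was 2.13-fold lower under 1 of 14 alternatives. The 4 higher genes of 10 stand beside 6.66% of the 22209 genes measured in this pair, and the 1 lower gene beside 4.65%. Past 5-fold, the fold used by the study, were ID4, BMPER and BMP4, beside 0.824% of all genes. The study also asked for a raw signal above 100 a.u. and, in its stricter lists, for 5-fold against NM. The share given here uses the fold against OM alone. BMP4 fell under 5-fold with normexp (3.69-fold) and no background subtraction (4.37-fold), and BMPER with normexp (4.50-fold) and the median over its probes (4.16-fold). The median log2 ratio of the 10 genes was 0.44 and that of all genes 0.08. Nothing is read from these shares, since the genes were picked with this contrast in view.

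**Figure D1:**
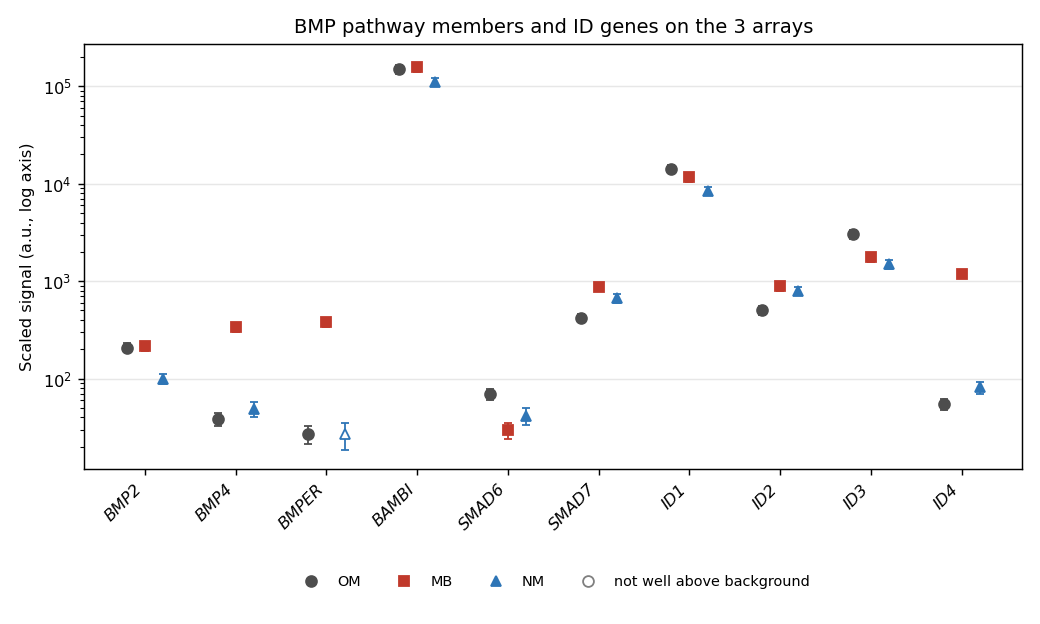
Scaled signal (a.u., log axis) of the 10 genes on the OM, MB and NM arrays, 1 array each, with the error the scanner software gives for the spot; open symbols were not well above background. ID4, BMP4 and BMPER stand apart on MB, at 1195, 338 and 378 a.u., while OM and NM lie close together for each of them.

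BMP4, a ligand that acts on neural crest and on many epithelia, read 338 ± 34 a.u. on the MB array, 38.2 ± 5.7 on OM and 49.0 ± 8.3 on NM. Its signal was high on MB and low on both monolayers. MB was 8.86-fold over OM and 6.89-fold over NM. The log2 ratio of NM to OM was 0.36 with an error of 0.33 from the spot errors, so the monolayers were hardly separated by more than the error of single spots.

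BMP2, the closest relative of BMP4 among the ligands, had another pattern. It read 215 ± 22 a.u. on the MB array, 208 ± 21 on OM and 99.5 ± 12.2 on NM. OM and MB overlapped within the spot errors and NM was the low array. The MB signal was 2.17-fold that of NM, and NM was 2.09-fold below OM. The sign of its log2 ratio of MB to OM, 0.05, was reversed under 3 of 14 alternatives. BMP2 and BMP4 thus differed in which array stood apart, NM for BMP2 and MB for BMP4.

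BMPER, a secreted protein with chordin-like cysteine-rich repeats that binds BMPs and can dampen or enhance their action, read 378 ± 38 a.u. on the MB array, 27.1 ± 5.9 on OM and 27.0 ± 8.4 on NM. The NM value was not well above background and the OM value was only slightly above the lowest signal that was. The ratio of MB to OM was 13.9-fold, that of MB to NM at least 11.4-fold, and no ratio of NM to OM is given. The second BMPER probe read 26.0 a.u. on the MB array, 4.13 on OM and 6.62 on NM. It was well above background on MB alone and gave a ratio of at least 1.24-fold over OM and no bound over NM. MB was the high array for both probes, but the second one sets only this low bound.

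BAMBI, a membrane pseudoreceptor that lacks a kinase domain and blocks BMP and TGF-β receptors, read 156781 ± 15678 a.u. on the MB array, 149650 ± 14965 on OM and 111950 ± 11195 on NM. None of these spots was marked as saturated. OM and MB overlapped and NM was lowest, 1.40-fold under MB. The sign of its small log2 ratio of MB to OM, 0.07, was reversed under 2 of 14 other ways of processing the arrays.

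The inhibitory SMADs went opposite ways. SMAD6, which mainly restrains BMP receptors, read 29.3 ± 5.3 a.u. on the MB array, 69.1 ± 8.4 on OM and 41.7 ± 8.4 on NM. It was highest on OM and lowest on MB, a 2.35-fold difference, with NM in between and within the spot errors of MB. All 3 signals were below 100 a.u., and with normexp background correction the log2 ratio of MB to OM was -0.45 in place of -1.23. SMAD7, which restrains BMP and TGF-β receptors, read 873 ± 88 a.u. on the MB array, 422 ± 43 on OM and 670 ± 68 on NM. It was lowest on OM, and MB was 2.07-fold and NM 1.59-fold over it. The side of 2-fold on which SMAD7 fell depended on the processing. It was 1.68-fold with spike-in scaling, 1.81-fold with 75th percentile scaling and 1.85-fold with quantile normalization. With normexp it was 1.87-fold and with no background subtraction 1.90-fold. It was past 2-fold in the other 9 of 14 alternatives. Among these, the deposited table, the filters on dim signals and the median over probes could not move its ratio.

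ID4, which is expressed in neural progenitors, read 1195 ± 120 a.u. on the MB array, 55.3 ± 7.2 on OM and 81.0 ± 10.8 on NM. Its MB signal stood far above both monolayers, 21.6-fold over OM and 14.7-fold over NM. Ranked by the ratio of MB to OM among 22194 genes with a ratio, ID4 was 10 from the top, BMPER 25 and BMP4 65. The genes were chosen with this ratio in view, so nothing is read from these ranks, which were taken under this processing alone. NM was 1.47-fold over OM, a log2 ratio of 0.55 with an error of 0.27.

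ID1, the family member most used as a readout of BMP signaling, read 11673 ± 1167 a.u. on the MB array, 14205 ± 1421 on OM and 8496 ± 850 on NM. It was highest on OM and lowest on NM, 1.67-fold apart, and MB in between overlapped OM within the spot errors. ID3, which is often co-expressed with ID1, had the same order, at 1750 ± 175 a.u. on the MB array, 3032 ± 303 on OM and 1497 ± 150 on NM. ID3 was 1.73-fold lower on MB and 2.03-fold lower on NM than on OM, while MB and NM overlapped within the spot errors.

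ID2, which also binds retinoblastoma family proteins, read 882 ± 88 a.u. on the MB array, 504 ± 51 on OM and 799 ± 80 on NM with its brighter probe. OM was the low array, and MB and NM overlapped. The second ID2 probe gave 671 a.u. on MB, 454 on OM and 673 on NM, with MB 1.48-fold over OM against 1.75-fold for the brighter one. Thus the 4 ID genes did not share a single pattern over the arrays. ID4 was high on MB alone and ID2 was lowest on OM. ID1 and ID3 were both highest on OM and lowest on NM. By the software errors MB overlapped OM for ID1, at a log2 ratio of -0.28, and NM for ID3, at 0.23. The SD between replicate spots at 100 a.u. or more, 0.05 and 0.04 for these pairs of arrays, was smaller than either ratio. No contrast between ID1 and ID3 is drawn from the overlap.

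**Figure D2:**
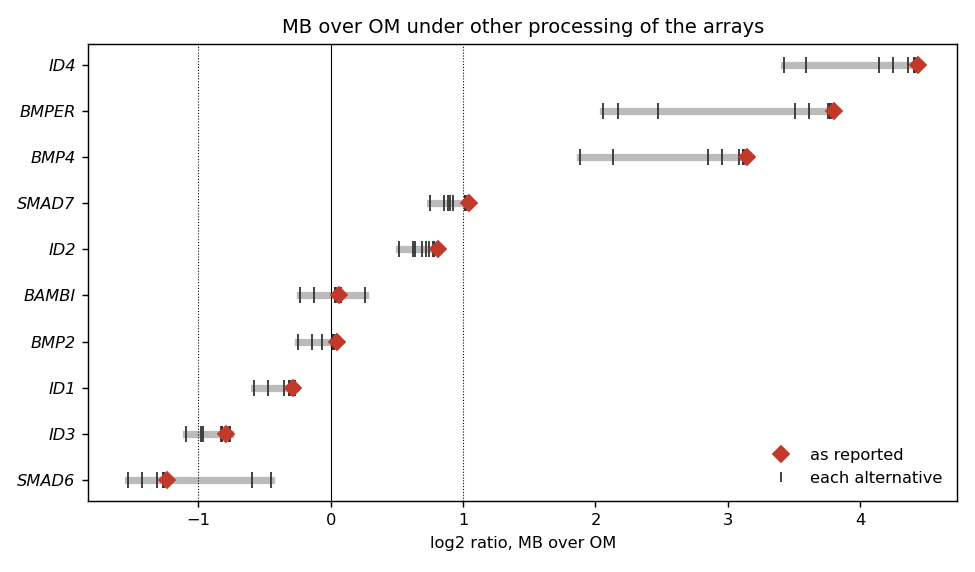
The log2 ratio of MB to OM for each of the 10 genes as reported (diamonds) and under each alternative processing (ticks), with dotted lines at 2-fold. ID4, BMPER and BMP4 stayed past 2-fold to the right under all 14 alternatives, while SMAD7, SMAD6 and ID3 have ticks on both sides of a dotted line.

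Against NM, the MB array showed 4 of the 10 genes at 2-fold or more higher, ID4, BMPER, BMP4 and BMP2, beside 12.4% of 21925 genes measured. None was 2-fold lower, beside 9.86% of all genes. Past 5-fold were ID4, BMPER and BMP4, beside 1.83%. With normexp BMP4 was 3.13-fold and BMPER 4.10-fold over NM, and with no background subtraction 3.52-fold and 4.61-fold, so ID4 alone stayed past 5-fold under these. The median log2 ratio was 0.47 for the 10 genes and 0.04 for all genes. SMAD7 was 1.30-fold and ID2 1.10-fold over NM, so these genes, which were higher on MB than on OM, differed less between MB and NM. This contrast uses the same MB array as the contrast with OM, so they are not independent of each other.

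NM against OM compares cells in the same medium, with and without the earlier 14 days as bodies. None of the 10 genes was 2-fold higher on NM, beside 4.58% of 21587 genes, and ID3 and BMP2 were 2-fold lower, beside 5.9%. Both lay close to the 2-fold line, at log2 ratios of -1.02 and -1.06. ID1 at -0.74 and SMAD6 at -0.73 were lower on NM as well, and ID2 and SMAD7 were higher, each at 0.66. The median log2 ratio was -0.42 for the 9 genes with a ratio and 0.06 over all genes.

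The rest of the pathway was described with a list of 67 further genes, of which 66 are on the array and 47 were measured in MB and OM. Of these 47, 8 were 2-fold or more higher on MB and 4 lower, beside 6.66% and 4.65% of all genes, with a median log2 ratio of 0.28. In MB and NM 48 were measured, 8 higher and 6 lower on MB, beside 12.4% and 9.86%, with a median of 0.35, and in NM and OM 47 were measured, 4 higher and 2 lower on NM, beside 4.58% and 5.9%, with a median of 0.15. With spike-in scaling the 8 and 4 of MB against OM became 5 and 5, and the 4 and 1 of the 10 genes became 3 and 2. The same scaling turned the 1479 higher and 1033 lower genes of the whole array into 838 and 1925.

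**Figure D3:**
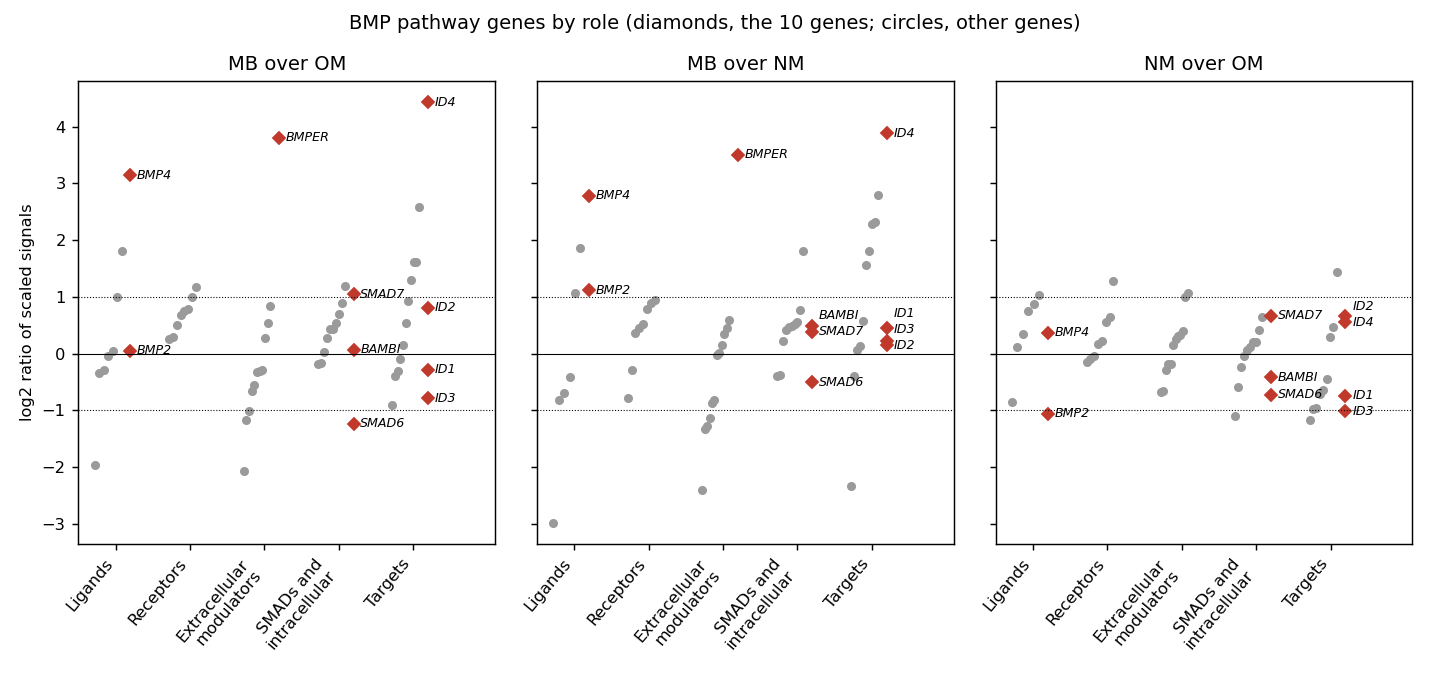
The log2 ratio of scaled signals in 3 pairs of arrays for BMP pathway genes grouped by role, with red diamonds for the 10 genes and grey circles for the other measured list genes; dotted lines mark 2-fold. BMPER has only a lower bound over NM and no ratio of NM to OM, and a few grey circles are likewise bounds. The MB over OM panel shows all 8 measured receptor genes above 0 (7 of 8 with spike-in scaling). Over all genes in that pair, 12584 were higher and 9610 lower on MB.

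Among the other ligands, BMP7 and BMP6 lay on opposite sides of BMP2. BMP7 read 31735 a.u. on the MB array, 9068 on OM and 15221 on NM, and its second probe gave nearly the same log2 ratio of MB to OM, 1.77 against 1.81. BMP6 read 1111 a.u. on MB, 4324 on OM and 8793 on NM, so MB was 3.89-fold below OM and 7.91-fold below NM. Among the 7 measured ligands besides BMP2 and BMP4, 1 was 2-fold higher and 1 lower on MB than on OM, beside 6.66% and 4.65% of all genes. BMP8B was 1.99-fold higher on MB than on OM and 3.62-fold higher than on NM, while the probes of BMP8A disagreed in sign, at -0.35 and 0.30.

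All 8 receptor and co-receptor genes measured were higher on MB than on OM, with a median log2 ratio of 0.71. Over all genes, 12584 were higher and 9610 lower on MB. Of the 8, 2 were at 2-fold or more higher, beside 6.66% of all genes. These were ACVR1, a type I receptor that lay on the line at 2.00-fold, at 9365 a.u. on the MB array, 4682 on OM and 7280 on NM, and ACVR2A, a type II receptor, at 209 a.u. on MB, 93.3 on OM and 108 on NM. ENG, a co-receptor, was 1.67-fold and ACVR2B, a type II receptor, 1.20-fold higher on MB than on OM. RGMB, another co-receptor, was highest on NM, 2.43-fold over OM, and its probes disagreed in sign between MB and OM, at 0.50 and -0.10. BMPR1B and ACVRL1 were not well above background on any array. With spike-in scaling the median over all genes moved from 0.08 to -0.22, and 7 of the 8 receptor genes were then above 0, while all 8 lay above that median.

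Of the 11 extracellular modulators measured besides BMPER, 3 were 2-fold or more lower on MB than on OM, beside 4.65% of all genes, and 0 were higher, beside 6.66%. Their median log2 ratio was -0.32, that of all genes 0.08. NBL1, a secreted BMP antagonist, was 2.25-fold lower and CRIM1, a membrane protein with chordin-like repeats, 2.01-fold lower on MB than on OM. CHRD, the antagonist chordin, was 1.22-fold lower on MB than on OM and 2.44-fold lower than on NM. Its second probe put MB 1.21-fold below OM and only 1.51-fold below NM. NOG and GREM1 were not well above background on any array. Of the 12 modulators measured in MB and OM with BMPER included, BMPER alone was 2-fold or more higher on MB in this processing.

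Of the 10 other intracellular genes measured, 1 was 2-fold higher on MB than on OM, beside 6.66% of all genes, and 0 lower, with a median log2 ratio of 0.43. That gene was SMAD1, a receptor-activated SMAD, at 7177 a.u. on the MB array, 3130 on OM and 4891 on NM, and its second probe gave a log2 ratio of 0.85 beside 1.20. SKIL, a nuclear co-repressor of SMADs, was 1.63-fold over OM and 3.50-fold over NM. TOB1 and LEMD3, both repressors of SMAD signaling, were 1.22-fold and 1.35-fold over OM.

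Of the 11 other target genes measured, 4 were 2-fold or more higher on MB than on OM, beside 6.66% of all genes, and 0 lower, beside 4.65%, with a median log2 ratio of 0.54 beside 0.08 for all genes. The homeobox gene DLX2 read 814 a.u. on the MB array, 266 on OM and 163 on NM, with log2 ratios of MB to OM from 1.41 to 1.62 over its 3 probes. DLX5, of the same family, was at least 6.95-fold higher on MB than on NM and 3.08-fold higher than on OM. TBX2, a T-box repressor expressed in melanocytes and melanoma, was 2.47-fold over OM and 4.89-fold over NM, and TBX3, its close relative, 1.89-fold and 2.96-fold. MSX2, a homeobox target in the neural crest, was at least 6.02-fold over OM with 1 probe but had a log2 ratio of 0.71 with the other. At any fold, 7 of the 11 were higher and 4 lower on MB than on OM, beside 12584 and 9610 of all genes. HEY1, a bHLH repressor induced by Notch and BMP signals, was 1 of these 4. It read 1737 a.u. on the MB array, 3262 on OM and 8790 on NM, which put MB 5.06-fold below NM.

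The genes most like ID4 over the 3 arrays were sought by the distance between the pairs of log2 ratios of MB to OM and NM to OM. The search covered 17579 genes well above background on all 3 arrays and above 100 a.u. on the brightest. BMPER was not among them, since its NM signal was not well above background. KIF26B, a kinesin family gene, was nearest at 0.30, followed by the unnamed transcript THC2404028 at 0.63, S100A4, a calcium-binding protein tied to motility, at 0.85, DHRS10 at 0.87 and SMCR8 at 0.91. With 3 arrays this likeness rests on 2 ratios that share the OM array. KIF26B read 1387 a.u. on the MB array, 52.9 on OM and 71.5 on NM.

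The bHLH factors that ID proteins can bind, or that work beside them, were described with a list of 18 genes, of which 15 were measured in MB and OM. On MB 5 were 2-fold or more higher than on OM, beside 6.66% of all genes, and 2 lower, beside 4.65%, with a median log2 ratio of 0.58. In MB and NM 4 of 15 were higher, beside 12.4%, and 2 lower, beside 9.86%, with a median of 0.00. In NM and OM 1 of 14 was higher, beside 4.58%, and 0 lower, beside 5.9%, with a median of 0.05. TCF4, an E protein and direct partner of ID proteins, read 9805 a.u. on the MB array, 4110 on OM and 4162 on NM. TCF3 and TCF12, the other E proteins on the list, moved little between MB and OM, at log2 ratios of 0.09 and 0.18 on their brightest probes. HAND2, a neural crest and heart factor, was 2.48-fold over OM and 2.74-fold over NM. TCF4 and HAND2 shared with ID4 the single high array, MB.

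**Figure D4:**
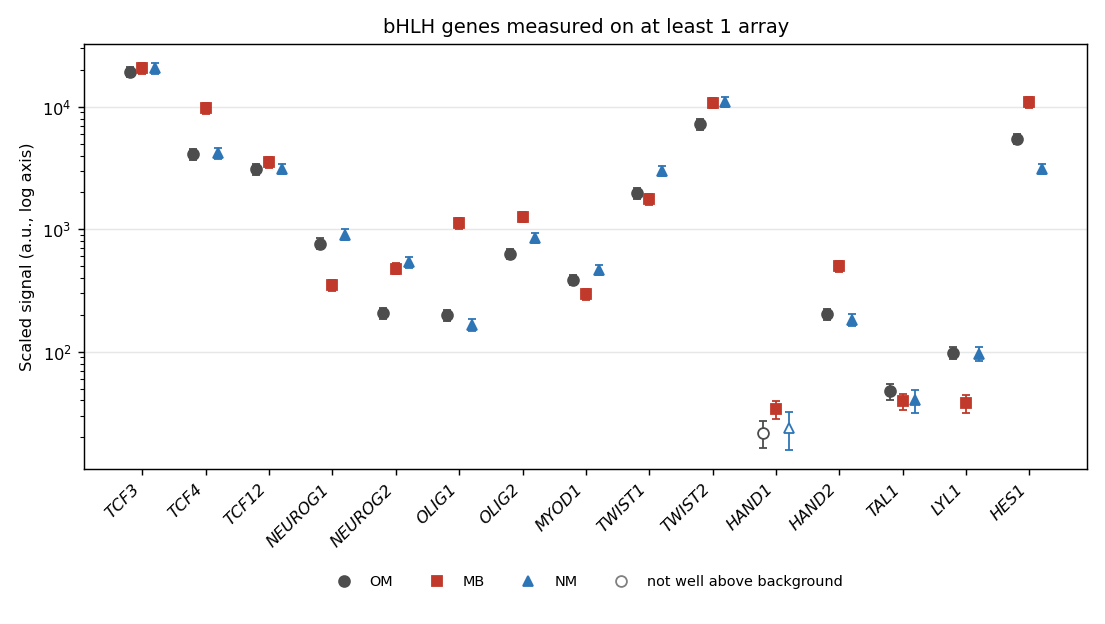
Scaled signal (a.u., log axis) of the 15 bHLH genes that were well above background on at least 1 array, on OM, MB and NM, 1 array each, with the error the scanner software gives; open symbols were not well above background. TCF4 stands at 9805 a.u. on MB and at 4110 and 4162 on OM and NM, and NEUROG1 is lowest on MB.

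OLIG1, an oligodendrocyte lineage factor, was 5.61-fold over OM on its brighter probe, whereas its second probe had a log2 ratio of -0.21. OLIG2, of the same lineage, was 2.01-fold over OM and so on the 2-fold line. The proneural factors differed from each other, with NEUROG1 2.18-fold lower and NEUROG2 2.30-fold higher on MB than on OM. NEUROG2 was also high on NM, at 541 a.u. beside 478 on MB and 207 on OM. HES1, a repressor downstream of Notch, was 1.99-fold over OM and 3.50-fold over NM on its brightest probe. Its other probes gave 2.28-fold and 1.97-fold over OM, and 4.57-fold and 3.66-fold over NM.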

How the data were processed

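Total RNA from 3 populations of 1205Lu cells was hybridized to 1 array each, all on the same slide. The authors deposited the intensity of each spot as Agilent Feature Extraction 9.5.3.1 gave it, background-subtracted, on a linear scale and with no scaling between arrays. Their value table repeats these intensities. The error behind ± is the software's own estimate.

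Control spots were dropped, as were outlier spots, 77 on the OM, 79 on the MB and 81 on the NM array. Spots of a probe were averaged, and each array was scaled to OM by the arithmetic mean of HSP90AA1, ACTB and GAPDH from probes in 10 spots. The paper names HSP90 without the gene, so HSP90AA1 was a choice. A gene was represented by its probe with the highest mean signal, and was measured in a pair of arrays if well above background on at least 1 of them. A dim signal was raised to the lowest signal well above background on its array, which makes the fold a lower bound, and no fold is given where that bound is under 1. With 1 array per population no test was run, no p-value is given, and the number of arrays limits precision.

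The 10 genes, the lists of pathway, bHLH and marker genes and the 2-fold criterion were chosen with earlier results of these data known. From each list, genes past 2-fold in any comparison with the brighter array above 100 a.u. were named, or the 4 brightest of a list with fewer than 4. TCF3 and TCF12 fall outside this rule and were added beside TCF4. The 5 genes nearest to ID4 were named by distance. A gene that this rule would name is not reported here. ID2 and BMPER have 2 probes each, and these are given side by side. Gene names are those on the array, with coordinates in hg17. Promoters and motifs are from RefSeq (GRCh38.p14).

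The 14 alternatives covered scaling (75th percentile, quantile, none, geometric mean, HSP90AB1 for HSP90AA1, 8 spike-in probes), background (normexp with offset 50, no subtraction), outlier spots, filters on dim signals, the median over probes and the deposited table. Python 3.11.15, numpy 2.4.6, pandas 2.3.3, matplotlib 3.10.9, R 4.3.3 and limma 3.58.1 were used. The calculation was tested on simulated data.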

Additional observations from a re-analysis of the deposited data

How the results depend on the processing

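No alternative reversed a ratio past 2-fold among the 10 genes, and 134 of 152 alternative values of such ratios stayed past 2-fold. This tally includes values that could not change, those of the deposited table and, for many genes, of the filters and the median over probes. The ratio of MB to OM ranged from 10.7- to 21.6-fold for ID4, from 4.16- to 13.9-fold for BMPER and from 3.69- to 8.86-fold for BMP4, lowest with normexp (offset 50) for ID4 and BMP4 and with the median over probes for BMPER. With normexp 1 in place of 3 genes passed 5-fold on MB over OM. SMAD6 held the count of genes lower on MB than on OM, 1, which became 0 with normexp, with no background subtraction and with the brighter array above 100 a.u., and 2 with spike-in scaling. The count lower on NM than on OM, 2, became 1 with quantile normalization and 0 with the geometric mean, normexp or no background subtraction. The pathway count of 8 higher on MB than on OM became 5 with normexp and 5 with spike-in scaling. The pathway count of 4 higher on NM than on OM became 2 with 75th percentile, spike-in and no scaling, with normexp and with no background subtraction, and 7 with no filter on dim signals. The pathway count of 2 lower on NM became 4 with 75th percentile scaling and with no filter, 5 with no scaling and with spike-in scaling, 0 with normexp or no background subtraction, and 1 with both arrays well above background or the brighter above 100 a.u. The cause of these moves was not tested. Spike-in scaling and the limit on the brighter array were chosen after seeing the data. Signals near 20 a.u., those of BMPER on OM and NM above all, bound the size of a fold. No paired analysis was possible because each group has 1 array. No replicate could be left out.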

Other observations

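Features with a different symbol within 250 kb of the probes of the 10 genes (hg17) were counted as a description. Whether such a feature lies within the gene itself was not checked. ID4 and BMP4 each had 1 feature there, and both lay within 2-fold between MB and OM, at log2 ratios of -0.34 and 0.12. BMPER had 1, the transcript U85992, which was not well above background on OM or NM and read 159 a.u. on MB, at least 7.60-fold over OM. Its probe lies 218877 bp from that of BMPER. CN479126, 788 bp from the ID1 probe, read 237 a.u. on the MB array, 387 on OM and 209 on NM, the same order as ID1. AI652920, 339 bp from the BAMBI probe, read 347 a.u. on MB, 355 on OM and 289 on NM. AW327568, 902 bp from the ID3 probe, read 37.2 a.u. on MB, 53.1 on OM and 56.1 on NM, where NM was not lower as it was for ID3. Of the 12 features measured around ID1, 2 were 2-fold or more higher on MB than on OM and 2 lower, and of the 23 around ID3, 0 were higher and 1 lower, beside 6.66% and 4.65% of all genes.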
